A study of Rattus with 9 samples.

Results

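Transcripts of the interleukin-6 (IL-6) family were followed through single cells of the rat extrahepatic bile duct after liver transplantation (LT). The 9 genes were chosen by symbol, and each matched 1 of the 23999 features, which carry 23836 symbols. They were the ligands Il6, Il11, Lif and Osm, the receptor subunits Il6r, Osmr and Il6st, the transcription factor Stat3 and its feedback inhibitor Socs3. The rule for membership was the symbol alone. The questions were which cell classes held the ligand RNA, which held the receptor RNA, and how both differed between sham, ctrl and treat samples.

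All cytokines of this family signal through gp130, the protein encoded by Il6st. IL-6 and IL-11 first bind their own receptor subunits, whereas oncostatin M (encoded by Osm) joins gp130 with the subunit encoded by Osmr, and LIF joins it with the LIF receptor. The receptor complexes activate JAK kinases, which phosphorylate STAT3, and STAT3 induces Socs3, whose product blocks the same receptors. IL-6 can also reach cells without IL-6 receptor through a soluble form of that receptor. In bile ducts this pathway is known for cholangiocyte growth and for the response to injury.

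Bile ducts were profiled by 10x Genomics 3′ single-cell RNA-seq, in which every captured RNA molecule is counted once through its unique molecular identifier (UMI). The sham group, without LT, had 3 samples of 1 library each. The ctrl group was the LT model with ischemic injury, with 1 sample of 3 libraries at each of days 1, 3 and 7. The treat group was the same model with arterial flow raised by ligation of the splenic and gastroduodenal arteries, with 1 sample at each of days 1, 3 and 7. Day 3 of treat had 2 libraries here (numbers 2 and 3), and its library 1 is not analysed here. The labels give neither strain, sex nor age, nor whether a sample's libraries were taken from different rats. A ctrl or treat group is therefore 3 samples that differ in day, and p-values between libraries measure only the spread between these libraries, which may be technical.

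After filtering, 139494 cells remained, between 330 and 12559 per library, with between 1535761 and 74965236 UMIs in cells. The sham samples held 2298, 9255 and 11123 cells, the ctrl samples 12828, 7589 and 31644, and the treat samples 22521, 16373 and 25863. Libraries 2 and 3 of ctrl day 3 stood apart. They lost 2472 and 3961 barcodes to the limit on hemoglobin UMIs and kept 412 and 330 cells. Pairs of libraries shared at most 59 cell barcodes and at most 1.19% of the barcodes of the smaller library, these maxima being in different pairs. Of 47 clusters, 36 were named by marker genes, covering 123882 cells in 14 classes. The 9 genes were kept out of the clustering, so their levels did not define the classes.

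Osm RNA was concentrated in myeloid cells. Levels are given as CPM (UMIs of the gene per 1000000 UMIs of the class), as mean ± SD over the samples with at least 20 cells of it. In neutrophils Osm averaged 763 ± 200 CPM (n = 8), in monocytes and macrophages 94.9 ± 27.7 CPM (n = 9) and in dendritic cells 41.1 ± 21.5 CPM (n = 8). T and NK cells followed at 9.10 ± 5.05 CPM (n = 9). Each step in this order held in 8 of 8 samples that contained both classes. The mean differences in log2(CPM + 1) were 2.96, 1.32 and 1.98, each with an adjusted p = 0.026 by the two-sided exact permutation test within samples. Below T and NK cells no neighbours differed beyond their spread. Mast and basophil cells averaged 206 ± 137 CPM, but only 4 samples and 158 cells carried this value, so the class was left out of the order.

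At the level of single cells, 55.9% of 13169 neutrophils had an Osm UMI at a median depth of 1680 UMIs. Of biliary epithelial cells, set beside them as a class that is not myeloid, 1.49% had one at a median depth of 5931 UMIs. Free RNA was part of these low values. The profile of empty barcodes accounted for a median of 34.8% of Osm UMIs in biliary epithelial cells, 37.0% in endothelial cells and 28.7% in fibroblasts, against 0.187% in neutrophils and 0.609% in monocytes and macrophages. Of the 36924 Osm UMIs in the data set, neutrophils held 48.9% and monocytes and macrophages 43.5%.

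Il6 RNA was highest in mesenchymal and endothelial cells. Smooth muscle and mural cells averaged 132 ± 73.5 CPM, fibroblasts 119 ± 60.3 CPM and endothelial cells 59.1 ± 35.1 CPM (n = 9 each). The endothelial cells formed 2 clusters, of which one of 895 cells had Il6 at 122 CPM with 1221 UMIs and one of 6851 cells had it at 37.7 CPM with 1265 UMIs. The smaller cluster shared the leading genes Ccl19 and RGD1564664 with the smooth muscle and mural cluster. Its median was 9001 UMIs per cell, against 3490 in the larger one. Whether it held a mixture of both classes was not tested. The levels of the 3 classes were not distinguished between neighbours, with adjusted p = 0.53 between smooth muscle and fibroblasts and adjusted p = 0.31 between fibroblasts and endothelial cells (exact permutation tests). Endothelial cells exceeded monocytes and macrophages, which averaged 12.0 ± 7.75 CPM, in 9 of 9 samples, by 2.25 in log2(CPM + 1) with an adjusted p = 0.039 (exact permutation test). Of fibroblasts, 24.0% had an Il6 UMI at a median depth of 7905 UMIs, compared with 0.151% of T and NK cells at 3353 UMIs. The profile of empty barcodes accounted for a median of 0.123% of Il6 UMIs in fibroblasts, 0.139% in smooth muscle and mural cells and 0.458% in endothelial cells, against 44.4% in T and NK cells. Fibroblasts held 56.5% of the 31705 Il6 UMIs, and unnamed clusters held a further 18.2%.

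Il11, which signals through gp130 after binding its own receptor, was found in the same mesenchymal classes. It averaged 20.3 ± 26.4 CPM in fibroblasts and 18.2 ± 29.0 CPM in smooth muscle and mural cells, with the highest values in ctrl day 1, at 82.5 and 93.3 CPM. All other ordered classes were below 4 CPM on average. Unnamed clusters held 37.6% of the 4349 Il11 UMIs. Lif was sparse. Only 486 Lif UMIs were found in the whole data set, and among ordered classes the highest mean was 1.94 ± 1.81 CPM in lymphatic endothelial cells (n = 8), with between 0 and 6 UMIs per sample. Of neighbouring classes in the Lif and Il11 orders, none differed past the threshold, the smallest adjusted p being 0.94 for Lif and 0.16 for Il11 (exact permutation tests).

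**Figure D1:**
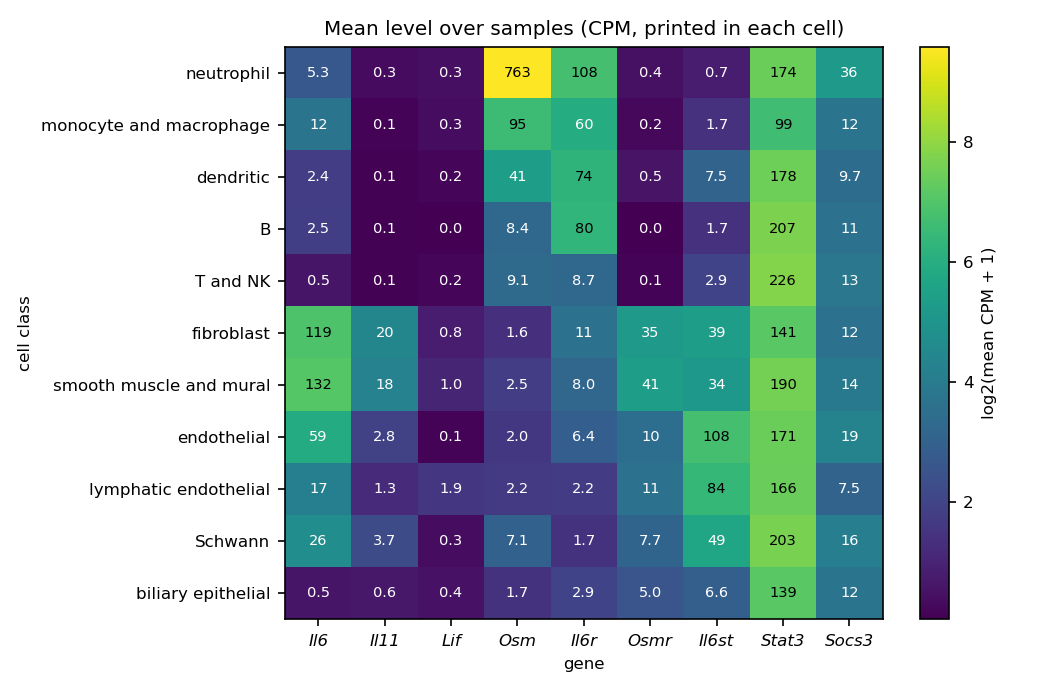
Mean level of each gene (columns) in each cell class (rows), as CPM printed in the cells and as log2(mean CPM + 1) by colour. Classes are those with at least 20 cells in at least 5 samples. Osm is highest in neutrophils at 763 CPM, Il6 in smooth muscle and mural cells at 132 CPM, Osmr in the same class at 40.9 CPM, and Il6st in endothelial cells at 108 CPM.

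Osmr RNA lay mostly outside the leukocytes. Osmr, the oncostatin M receptor subunit, averaged 40.9 ± 8.06 CPM in smooth muscle and mural cells and 34.9 ± 13.6 CPM in fibroblasts (n = 9 each). Lymphatic endothelial cells averaged 11.4 ± 5.90 CPM, endothelial cells 10.2 ± 6.27 CPM and biliary epithelial cells 4.96 ± 2.55 CPM. The leukocyte classes were all at 0.465 CPM or below on average. Neutrophils, the class with the most Osm per UMI, had 16 Osmr UMIs in 13169 cells. Of fibroblasts, 22.1% had an Osmr UMI, compared with 0.0554% of T and NK cells at the depths given above, and empty barcodes accounted for a median of 30.5% of the few Osmr UMIs in T and NK cells. In biliary epithelial cells this median was 1.27%, so that most of their 1081 Osmr UMIs were not attributed to free RNA. Fibroblasts held 61.9% of the 8618 Osmr UMIs.

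Il6st, the shared signal-transducing subunit, was highest in endothelial cells at 108 ± 37.4 CPM (n = 9) and lymphatic endothelial cells at 83.9 ± 31.5 CPM (n = 8). Schwann cells averaged 49.0 ± 37.0 CPM (n = 6), fibroblasts 39.4 ± 16.5 CPM and smooth muscle and mural cells 33.8 ± 8.26 CPM. None of these neighbours differed from each other past the threshold. Smooth muscle and mural cells exceeded biliary epithelial cells, at 6.60 ± 1.93 CPM, in 9 of 9 samples, by 2.21 in log2(CPM + 1) with an adjusted p = 0.039 (exact permutation test). Among the ordered classes neutrophils were lowest at 0.718 ± 0.685 CPM. An Il6st UMI was present in 32.0% of endothelial cells at a median depth of 3896.5 UMIs and in 0.175% of neutrophils at 1680 UMIs. Empty barcodes accounted for a median of 0.0854% of Il6st UMIs in endothelial cells and 6.92% in neutrophils.

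Il6r, the ligand-binding subunit for IL-6, was the one receptor gene carried mainly by leukocytes. Neutrophils averaged 108 ± 43.3 CPM (n = 8), B cells 79.7 ± 26.0 CPM (n = 8), dendritic cells 73.9 ± 26.7 CPM (n = 8) and monocytes and macrophages 60.3 ± 20.7 CPM (n = 9). These 4 classes did not differ between neighbours past the threshold. Monocytes and macrophages exceeded fibroblasts, at 11.5 ± 4.26 CPM, in 9 of 9 samples, by 2.32 in log2(CPM + 1) with an adjusted p = 0.039 (exact permutation test). Biliary epithelial cells were at 2.90 ± 1.28 CPM, of which a median of 8.75% was attributed to empty barcodes. Of dendritic cells, 36.8% had an Il6r UMI at a median depth of 6582 UMIs, against 2.51% of biliary epithelial cells. Monocytes and macrophages held 46.3% of the 19378 Il6r UMIs.

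Stat3 and Socs3 were not confined to one compartment. Class means of Stat3 among the ordered classes ran from 99.3 ± 28.3 CPM in monocytes and macrophages to 226 ± 82.4 CPM in T and NK cells, with biliary epithelial cells at 139 ± 23.5 CPM. Class means of Socs3 ran from 7.52 ± 2.32 CPM in lymphatic endothelial cells to 36.2 ± 28.3 CPM in neutrophils, with biliary epithelial cells at 12.2 ± 6.16 CPM. The Socs3 level in neutrophils varied widely, from no UMI in sham 1 to 93.5 CPM in ctrl day 3. The RNA level of Stat3 does not measure phosphorylated STAT3, which was not assayed in these data.

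Over the 101 profiles of 1 class in 1 sample, the genes whose log2(CPM + 1) was most like that of a family member were sought among 12741 genes. For Osm they were Nlrp3, an inflammasome sensor (r = 0.89), Cd300a (r = 0.89) and LOC100910669 (r = 0.88). For Osmr they were St6galnac2 (r = 0.91), Ehd2 (r = 0.89) and Plpp3 (r = 0.88). For Il6st they were Pam, Lamb1 and Timp3 (r = 0.89 each), and Lamb1 encodes a basement membrane laminin chain. For Il6 they were Cyp7b1 (r = 0.83), Tfpi2 and Igfbp4 (r = 0.81 each), for Il11 Uox (r = 0.80), Agtr1a and Loxl2 (r = 0.78 each), and for Il6r they included Ebi3 and Wdfy4 (r = 0.82 each). Stat3 and Socs3 had weaker partners, with the highest r at 0.58 for LOC100911664 and 0.56 for Zc3h10. The profiles share samples and libraries, and these values of Pearson's r are descriptions over profiles that are not independent.

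Summed over all cells, Osm was the family member past the threshold of edgeR between ctrl and sham, while DESeq2 called 2 members. Levels here are CPM after TMM scaling of the sample sums. Osm was at 18.1, 9.59 and 9.58 CPM in the sham samples, at 79.3, 157.7 and 54.7 CPM in ctrl at days 1, 3 and 7, and at 33.0, 43.0 and 31.4 CPM in treat at days 1, 3 and 7. Every ctrl sample lay above every treat sample, and every treat sample above every sham sample. Here and below, the share of all genes that separate in this way is not given, so a separation is a description of the samples only. Osm rose in ctrl against sham by 2.98 on the log2 scale (SE 0.44, adjusted p = 0.020 by edgeR's quasi-likelihood test). It was the only 1 of 9 members past the threshold, and 8.60% of all 16031 genes tested passed it in this comparison. Without sham 2, sham 3 or ctrl day 3 the adjusted p was 0.077, 0.098 and 0.056, with log2 differences of 2.82, 2.82 and 2.43. Without libraries 2 and 3 of ctrl day 3 it was 2.99 with an adjusted p = 0.019.

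Against sham, Osm in treat differed by 1.54 (SE 0.42) with an adjusted p = 0.095, and treat against ctrl differed by -1.44 (SE 0.41) with an adjusted p = 1.0. Without ctrl day 3 the latter was -0.90. In both comparisons edgeR called no gene at all, or 0% of 16031. At an unadjusted p under 0.05 it counted 3835 genes, 3 of them members, in treat against sham, and 530 genes in treat against ctrl. DESeq2 called 2363 and 10 genes in these comparisons. By DESeq2, Osm at 1.56 (adjusted p = 0.0070) and Il6r at 1.01 (adjusted p = 0.046) passed in treat against sham. The comparisons with sham use the same 3 sham samples.

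Neutrophils were more frequent in every ctrl and treat sample than in any sham sample. The share of neutrophils among cells was 3.13%, 0.108% and 0.333% in sham, 26.2%, 31.5% and 7.76% in ctrl at days 1, 3 and 7, and 12.0%, 7.30% and 3.70% in treat at the same days. The summed level of 10 neutrophil markers ranged from 50.5 to 1037 CPM in sham, with up to 2 of the markers at 0, from 6586 to 16680 CPM in ctrl and from 1981 to 12068 CPM in treat. With the neutrophil class left out of the sums, Osm was at 7.92, 9.63 and 9.26 CPM in sham, at 12.6, 67.9 and 33.4 CPM in ctrl and at 19.7, 32.0 and 24.3 CPM in treat. The ctrl against sham difference was then 2.08 with an adjusted p = 0.055 (edgeR), and the day 1 ctrl sample came close to sham. Neutrophils held 85.1% of the Osm UMIs of ctrl day 1 and 60.0% of those of ctrl day 3. In ctrl day 7 and in treat at days 1, 3 and 7, monocytes and macrophages held the larger share, with 50.3%, 50.0%, 66.0% and 59.7%.

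**Figure D2:**
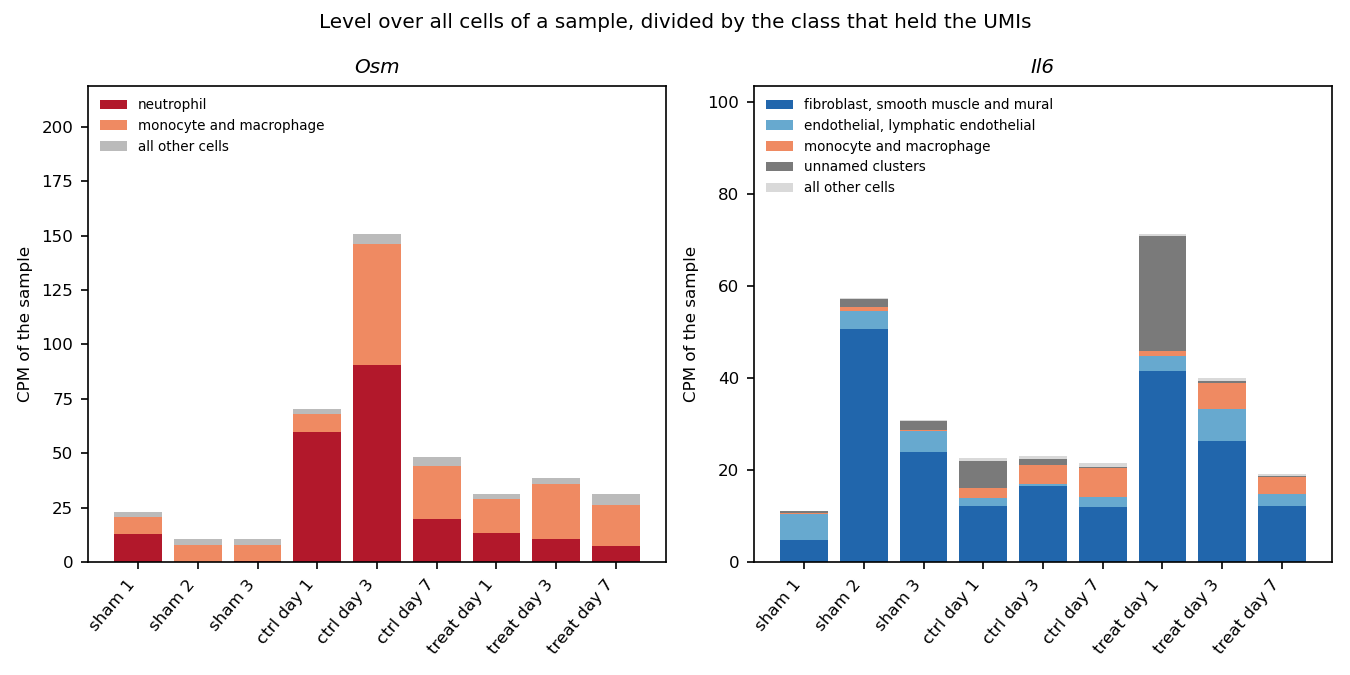
Level of Osm (left) and Il6 (right) over all cells of a sample, in CPM of that sample without TMM scaling, with bars divided by the cell class that held the UMIs. Neutrophils hold 85.1% of Osm UMIs in ctrl day 1 and 24.0% in treat day 7. Unnamed clusters hold 35.1% of the Il6 UMIs in treat day 1.

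The other members did not pass the threshold of edgeR with TMM scaling in ctrl against sham. Il6r, at 10.8, 15.6 and 10.9 CPM in sham, was at 15.4, 35.1 and 34.2 CPM in ctrl and at 22.8, 20.5 and 31.2 CPM in treat. Its difference was 1.18 (SE 0.34, adjusted p = 0.064) in ctrl and 0.99 (SE 0.33, adjusted p = 0.13) in treat. Il6st was at 34.5, 20.2 and 21.1 CPM in sham and at 12.7, 15.5 and 11.2 CPM in ctrl, a difference of -0.94 (SE 0.33, adjusted p = 0.10). The ctrl and sham samples did not overlap for Il6st and overlapped at 1 sample of each group for Il6r. Il6 was at 8.74, 51.6 and 28.1 CPM in sham, between 24.1 and 25.5 CPM in the 3 ctrl samples, and at 75.0, 44.6 and 19.2 CPM in treat, so that the sham samples alone spanned more than the ctrl samples did. Stat3 was at 84.9, 120.6 and 130.6 CPM in sham, at 116.8, 147.9 and 183.2 CPM in ctrl and at 154.2, 175.4 and 181.9 CPM in treat. Its difference was 0.41 in ctrl (adjusted p = 0.25) and 0.61 in treat (adjusted p = 0.16), all values being from edgeR unless DESeq2 is named. Socs3 differed by 0.16 and 0.06, and these directions flipped to -0.21 and -0.27 when library size replaced TMM.

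With libraries as units, each day could be set against sham. Of the 9 members, 1, 2 and 2 rose in ctrl at days 1, 3 and 7, and 1 fell at day 7. In treat 0, 0 and 1 rose and 0 fell. These edgeR counts are to be read beside the shares of all genes given next. For treat at day 7, DESeq2 called 1 member higher and 1 lower, among 3059 genes called of 16099. The fit had 16099 genes. Compared with sham, 21.9%, 9.70% and 22.0% of genes passed the threshold in ctrl at days 1, 3 and 7, and 9.91%, 6.70% and 12.6% in treat. Osm rose in ctrl on each day, by 2.71 (SE 0.81) at day 1, 3.31 (SE 0.83) at day 3 and 2.54 (SE 0.80) at day 7, with adjusted p of 0.026, 0.023 and 0.034. Il6r rose in ctrl by 1.53 (SE 0.33) at day 3 and 1.57 (SE 0.33) at day 7, with adjusted p of 0.012 and 0.0051, and in treat at day 7 by 1.37 (SE 0.32, adjusted p = 0.014). Il6st fell in ctrl at day 7 by 1.06 on the log2 scale (SE 0.34, adjusted p = 0.036). All adjusted p are from edgeR. No member passed in treat at days 1 and 3. Without libraries 2 and 3 of ctrl day 3, the day 3 differences were 3.72 for Osm (adjusted p = 0.12) and 1.49 for Il6r (adjusted p = 0.12). With each day summed into 1 sample, no member and no gene passed the threshold in any of these comparisons.

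The libraries of a day were far apart. Osm in ctrl day 1 was at 92.1, 131.4 and 9.70 CPM in libraries 1, 2 and 3, so that library 3 lay within the sham range of 9.22 to 17.4 CPM. Osm in ctrl day 7 was at 29.3, 144.1 and 33.0 CPM, and without library 2 its difference was 1.40 with an adjusted p = 0.20 (edgeR). The Osm call at day 1 was lost without library 1 (adjusted p = 0.054) or library 2 (adjusted p = 0.096), and that at day 3 without library 1 (adjusted p = 0.058), while without sham 2 or sham 3 all 3 Osm calls were lost, with adjusted p between 0.081 and 0.12. In treat, Osm was between 13.1 and 47.9 CPM at day 1, at 41.9 and 41.0 CPM at day 3, and between 12.1 and 47.6 CPM at day 7. Without the neutrophil class, the ctrl differences were 0.43, 2.58 and 2.23 at days 1, 3 and 7, with adjusted p of 0.72, 0.064 and 0.054.

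Il6r was more even between libraries. In ctrl day 7 it was at 26.1, 45.3 and 35.4 CPM and in treat day 7 at 27.9, 33.1 and 32.0 CPM, all above the sham range of 10.4 to 15.01 CPM. The call at ctrl day 7 held without each library in turn, whereas that at ctrl day 3 was lost without its library 2 (adjusted p = 0.0504) or sham 3 (adjusted p = 0.062), and that at treat day 7 without sham 3 (adjusted p = 0.074). The summed level of 11 monocyte and macrophage markers was between 1578 and 3944 CPM in sham, 4565 and 13342 CPM in ctrl, and 4467 and 9062 CPM in treat. B cells were between 0.348% and 0.432% of cells in sham, and 15.7% in ctrl day 7 and 8.74% in treat day 7, where they held 19.0% and 15.6% of the Il6r UMIs. Monocytes and macrophages held 49.4% and 45.2% and neutrophils 7.15% and 4.13% of them. The part of these classes in the Il6r difference was not tested. Il6st in ctrl day 7 was at 13.2, 15.7 and 6.06 CPM against 33.1, 19.5 and 20.3 CPM in sham, and the call was lost without its library 3 (adjusted p = 0.14), sham 1 (adjusted p = 0.13) or sham 3 (adjusted p = 0.058). The summed level of 10 endothelial markers ranged from 491 to 2208 CPM in sham, from 321 to 416 CPM in ctrl and from 463 to 563 CPM in treat, and its part in the Il6st difference was not tested.

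**Figure D3:**
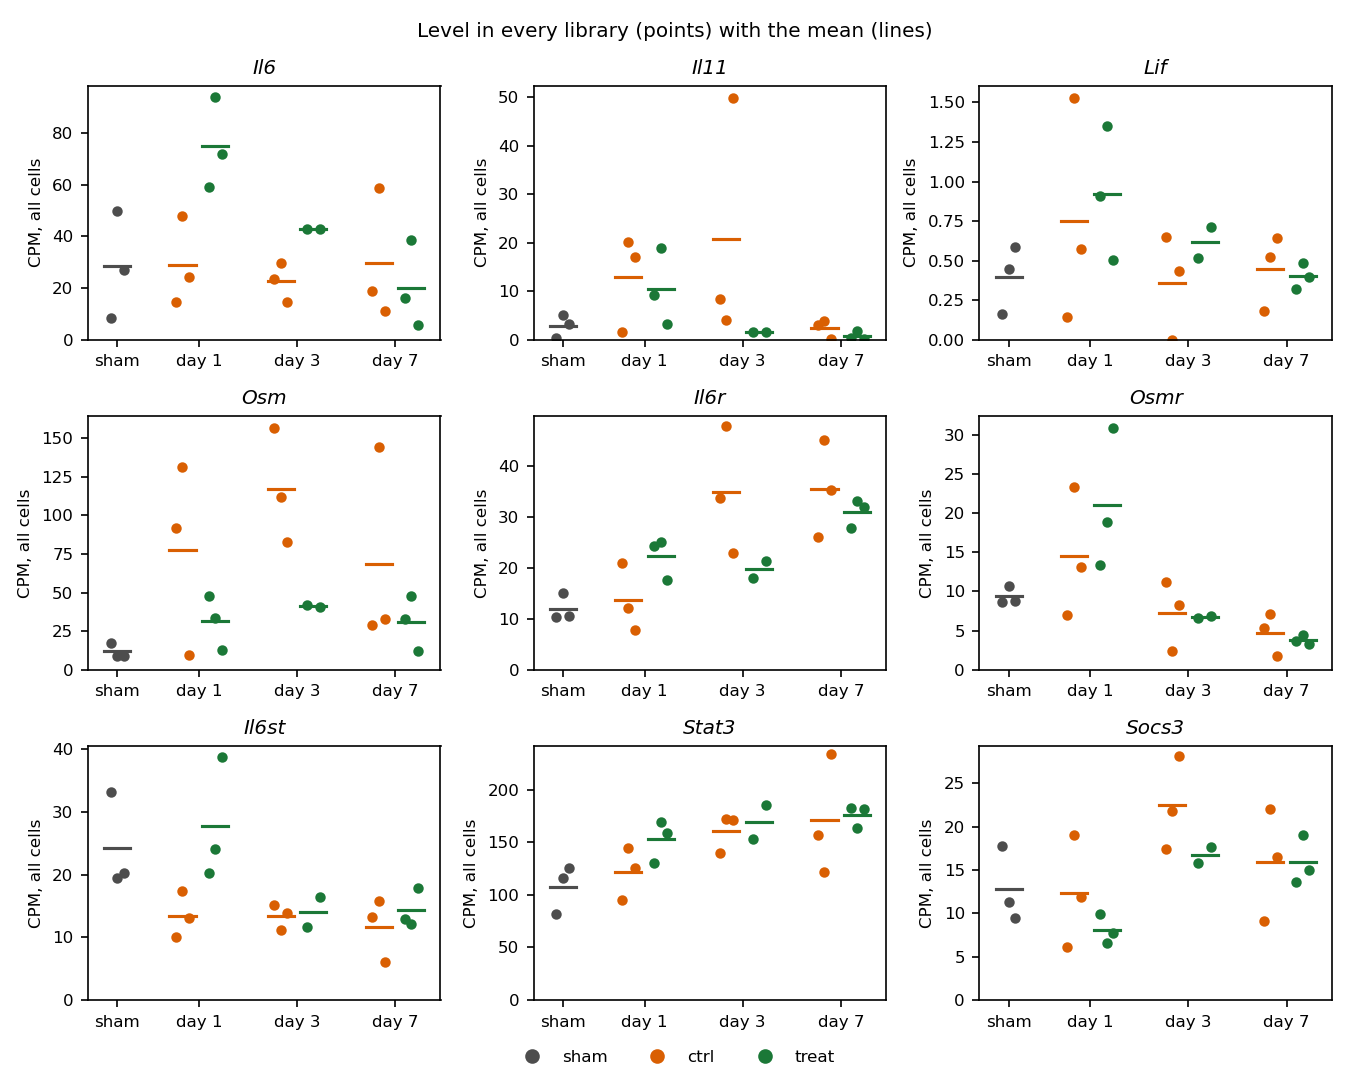
Level of each gene over all cells in every library, in CPM after TMM scaling. Points are libraries, lines are group means, and colours mark sham, ctrl and treat at days 1, 3 and 7. The 3 libraries of ctrl day 1 spread from 9.70 to 131.4 CPM for Osm, while Il6r at day 7 lies above the sham range in every library of ctrl and treat.

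Days 7 and 1 were compared within each arm, a comparison added after the data had been seen. Of the 9 members, 2 passed in ctrl and 1 in treat, close to the share of all genes, of which 19.7% passed in ctrl and 16.1% in treat. DESeq2 called 2 members and 4016 genes in ctrl, and in treat 4 members, all lower (Il6, Il11, Osmr and Il6st), and 3697 genes. In ctrl, Il6r rose by 1.37 (SE 0.32, adjusted p = 0.0087) and Osmr fell by 1.62 on the log2 scale (SE 0.51, adjusted p = 0.035). In treat, Osmr fell by 2.45 on the log2 scale (SE 0.52, adjusted p = 0.0075), from 13.4, 18.8 and 30.9 CPM at day 1 to 3.72, 4.49 and 3.32 CPM at day 7, with no overlap. Il11 in treat was at 9.28, 18.8 and 3.22 CPM at day 1 and at 0.353, 1.77 and 0.198 CPM at day 7, a difference of -3.79 (SE 1.27, adjusted p = 0.053). The Osmr call in ctrl was lost without any of 4 libraries, with adjusted p between 0.064 and 0.165, and that in treat held without each library in turn. Fibroblasts, the class with most Osmr UMIs, made up 20.4% of cells in treat day 1 and 3.63% in treat day 7. In ctrl their share was 0.889% at day 1 and 3.36% at day 7, while that of biliary epithelial cells, which held 44.6% of the Osmr UMIs of ctrl day 1 and 14.7% of those of ctrl day 7, was 28.3% and 8.73%. The part of these classes in the Osmr differences was not tested.

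Between treat and ctrl on the same day, no member passed the threshold of edgeR. At day 1, where 9.08% of all genes passed, Il6st was at 20.3, 24.1 and 38.8 CPM in treat and at 10.0, 17.3 and 13.0 CPM in ctrl. The 2 arms did not overlap, and the difference of 1.05 (SE 0.34) had an adjusted p = 0.065 by edgeR and 0.030 by DESeq2. Il6 at day 1 was at 59.2, 93.8 and 72.0 CPM in treat and at 14.6, 47.9 and 24.2 CPM in ctrl, also without overlap, a difference of 1.38 (SE 0.70, adjusted p = 0.24). Fibroblasts made up 20.4% of cells in treat day 1 and 0.889% in ctrl day 1. They held 57.0% of the Il6 UMIs and 60.6% of the Il6st UMIs of treat day 1, against 18.1% and 8.79% of those of ctrl day 1, and their part in both differences was not tested. At days 3 and 7, 0% of genes passed in edgeR, with DESeq2 calling 289 and 3 genes and no member, and edgeR at an unadjusted p under 0.05 counting 2355 and 509 genes. Osm was lower in treat than in ctrl on each day, with differences of -1.30, -1.51 and -1.15 and adjusted p of 0.32, 0.45 and 1.0, and the day 1 difference was 0.67 without the neutrophil class. On leaving out 1 library, the Osm difference ranged from -1.82 to -0.69 at day 1, being smallest without ctrl library 2, and from -1.60 to -0.0077 at day 7, being close to 0 without ctrl library 2.

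Levels were next compared within cell classes, where the share of a class in the sample does not enter but the mix of clusters inside the class does. Here 10 classes had enough cells, and 61 tests of a member in a class were possible in each of the 3 comparisons. None passed the threshold of edgeR with TMM scaling. Monocytes and macrophages of the 3 groups came from different clusters. Cluster 26 held 58.2% of the sham ones, 0.674% of the ctrl ones and 0.346% of the treat ones, whereas the largest clusters of ctrl (cluster 8) and of treat (cluster 6) held 23.6% and 31.0% of theirs. At an unadjusted p under 0.05 there were 14 in ctrl against sham, 6 in treat against sham and 6 in treat against ctrl. Of all 94779 tests of a gene in a class, 2.33%, 0.638% and 0% passed, and 18618, 13315 and 3879 reached an unadjusted p under 0.05. DESeq2 was not run within classes.

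Osm per neutrophil UMI was high in every group. Without TMM scaling it was at 1033 and 837 CPM in sham 1 and sham 3, which held 72 and 37 neutrophils, at 775, 996 and 720 CPM in ctrl at days 1, 3 and 7, and at 424, 586 and 736 CPM in treat. Sham 2 had 10 neutrophils and was left out. The ranges of sham and ctrl overlapped. The fitted difference of ctrl against sham was 0.60 (SE 0.36, adjusted p = 0.56) with TMM and -0.18 (adjusted p = 0.84) with library size, so that no direction is given. Treat against ctrl differed by -0.60 (SE 0.31, adjusted p = 1.0). In monocytes and macrophages Osm was at 63.7, 75.2 and 118 CPM in sham, at 72.4, 150 and 84.3 CPM in ctrl and at 113, 98.7 and 78.6 CPM in treat, which overlapped, and the differences from sham were 0.48 (SE 0.29, adjusted p = 0.29) in ctrl and 0.41 (SE 0.29, adjusted p = 0.40) in treat. The first was 0.24 without ctrl day 3 and 0.81 without sham 3. Cluster 26, which held most sham cells of this class, had Osm at 99.4 CPM, and the other clusters of the class ranged from 5.65 to 146 CPM.

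Il6 within its source classes did not pass the threshold in any comparison with TMM scaling. With library size in place of TMM, Il6 in monocytes and macrophages passed in ctrl against sham, at 1.93 (adjusted p = 0.041). Il6 in monocytes and macrophages was at 1.52, 6.27 and 2.69 CPM in sham, at 20.7, 10.7 and 24.3 CPM in ctrl and at 6.92, 26.5 and 16.8 CPM in treat after TMM scaling. Every ctrl and treat sample lay above every sham sample. The differences were 2.21 (SE 0.60, adjusted p = 0.051) in ctrl and 2.06 (SE 0.60, adjusted p = 0.075) in treat. In this class 8.61% and 4.10% of 11719 genes passed the threshold against sham in ctrl and treat. An unadjusted p under 0.05 was reached by 3612 and 2989 genes. The clusters of this class differed in Il6. Cluster 26 was at 5.52 CPM. Cluster 22 was at 51.7 CPM, with 16.2% of the ctrl cells of the class and 0.0328% of the sham ones. Of its cells, 80.6% came from 1 ctrl sample. Cluster 6 was at 36.9 CPM, with 31.0% of the treat cells and 1.93% of the sham ones. The part of this mix in the Il6 difference was not tested. In smooth muscle and mural cells, which formed 1 cluster, Il6 was at 49.8, 80.96 and 79.1 CPM in sham, at 265, 98.4 and 132 CPM in ctrl and at 88.5, 266 and 152 CPM in treat. Here too every ctrl and treat sample lay above every sham sample, with differences of 1.27 (SE 0.48, adjusted p = 0.19) and 1.28 (SE 0.47, adjusted p = 0.26). In fibroblasts Il6 was at 27.3, 96.7 and 43.1 CPM in sham, at 194, 93.0 and 117 CPM in ctrl and at 136, 248 and 152 CPM in treat. The differences were 1.23 (SE 0.46, adjusted p = 0.22) and 1.64 (SE 0.47, adjusted p = 0.19). In endothelial cells Il6 was at 34.5, 93.3 and 116.7 CPM in sham, at 36.3, 10.8 and 41.0 CPM in ctrl and at 68.2, 103 and 37.3 CPM in treat. Sham 1 lay within the ctrl range, so the groups overlapped, and the differences were -1.45 (SE 0.58, adjusted p = 0.23) and -0.24 (SE 0.56, adjusted p = 0.92). The fitted Il6 difference was negative in endothelial cells and positive in the other classes named here. None of these passed with TMM scaling, and a difference between classes was not tested. These adjusted p are from edgeR.

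Il11 in fibroblasts was higher in the ctrl samples than in the others. After TMM scaling it was at 1.19, 10.8 and 5.30 CPM in sham, at 91.1, 42.5 and 16.4 CPM in ctrl at days 1, 3 and 7, and at 11.4, 6.45 and 5.58 CPM in treat. In these named fibroblasts every ctrl sample lay above every sham and treat sample, while treat overlapped sham. The sham 1 value came from 1 UMI in 96 cells, and that of ctrl day 1 from 188 UMIs in 28 of 114 cells. Unnamed clusters, which do not enter these levels, held 61.5% of the Il11 UMIs of treat day 1 at 31.3 CPM, above the fibroblasts of ctrl day 7, and 36.7% of those of ctrl day 1, so that the separation depends on which clusters were named. The differences were 2.81 (SE 0.68, adjusted p = 0.080) for ctrl against sham and -2.62 (SE 0.65, adjusted p = 0.83) for treat against ctrl. In smooth muscle and mural cells Il11 was at 98.3, 17.4 and 14.6 CPM in ctrl, at 8.28, 19.1 and 3.90 CPM in treat and between 0 and 7.54 CPM in sham. The ctrl samples again lay above all sham samples, with an adjusted p = 0.15, and no fold is given because the sham samples held only 0, 0 and 2 Il11 UMIs. The ctrl day 3 value came from 9 UMIs in 1 of 45 cells, so this separation rests on 1 cell. Pooled over the samples of a group, fibroblasts came from different clusters. The shares were 68.1% of sham in cluster 7, 81.0% of ctrl in cluster 13 and 70.8% of treat in cluster 9. Cluster 9 drew 92.7% of its cells from 1 sample, treat day 1. That sample held 4595 fibroblasts, against 939 and 938 in treat at days 3 and 7, so the treat share is mainly that of day 1. Cluster 13 held 25.1% of the treat fibroblasts. In clusters 7, 13 and 9, Il6 was at 43.9, 157 and 132 CPM, Il11 at 4.51, 17.6 and 13.5 CPM, and Osmr at 19.1, 30.1 and 47.7 CPM. The part of this mix in the Il6, Il11 and Osmr levels of fibroblasts was not tested.

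No receptor gene passed the threshold within a class. Osmr in fibroblasts was at 34.4, 19.9 and 14.7 CPM in sham, at 61.5, 46.7 and 26.7 CPM in ctrl and at 49.5, 41.9 and 24.7 CPM in treat. Both arms overlapped sham through sham 1, with differences of 1.05 (SE 0.41, adjusted p = 0.23) and 0.86 (SE 0.41, adjusted p = 0.43). Osmr in biliary epithelial cells was at 2.53, 3.72 and 3.78 CPM in sham, at 11.5, 9.18 and 4.03 CPM in ctrl and at 2.60, 3.92 and 4.72 CPM in treat. The ctrl samples lay above the sham samples, by 1.26 (SE 0.41, adjusted p = 0.11), and the value was 1.59 with an adjusted p = 0.031 without ctrl day 7. Most biliary epithelial cells of sham were in cluster 20, with 70.9%, and those of treat in cluster 4, with 67.7%. Those of ctrl were divided between clusters 4, 11 and 17, with 39.1%, 32.0% and 27.7%, and had 1.27% in cluster 20. Osmr was at 4.08 CPM in cluster 20, 5.31 CPM in cluster 4, 4.82 CPM in cluster 11 and 8.27 CPM in cluster 17, and the part of this mix was not tested. Il6st in endothelial cells was at 151.9, 132.5 and 141.8 CPM in sham, at 56.3, 99.6 and 86.4 CPM in ctrl and at 68.4, 106.8 and 120.5 CPM in treat. All ctrl and treat samples lay below all sham samples, with differences of -0.82 (SE 0.26, adjusted p = 0.15) and -0.53 (SE 0.26, adjusted p = 0.60). Between 87.0% and 90.1% of endothelial cells of each group were in 1 cluster. Il6r in monocytes and macrophages differed by -0.54 (SE 0.25, adjusted p = 0.17) in ctrl, a direction opposite to that over all cells. Cluster 26, with 58.2% of the sham cells of that class, had Il6r at 79.8 CPM, and the other clusters of the class ranged from 9.77 to 67.9 CPM. The part of the mix of clusters was not tested. All values are from edgeR.

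**Figure D4:**
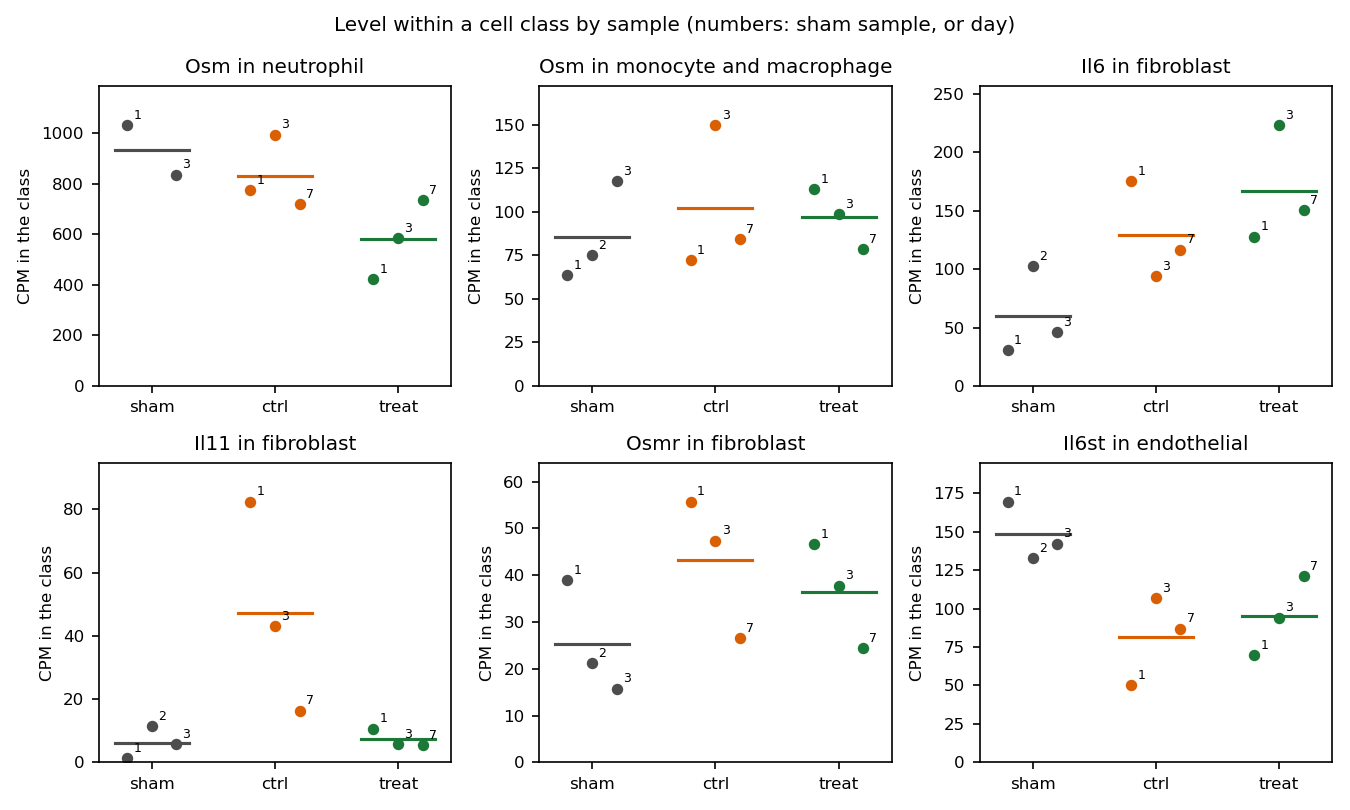
Level within a cell class by sample, in CPM without TMM scaling, for Osm in neutrophils and in monocytes and macrophages, Il6, Il11 and Osmr in fibroblasts, and Il6st in endothelial cells. Points are samples labelled by sham number or day, and lines are group means. Osm in neutrophils overlaps between sham (837 and 1033 CPM) and ctrl (720 to 996 CPM), while Il6st in endothelial cells is highest in the sham samples.

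Stat3 and Socs3 in biliary epithelial cells did not separate the groups. Stat3 was at 104, 140 and 149 CPM in sham, at 117, 150 and 152 CPM in ctrl and at 121, 159 and 157 CPM in treat, with differences from sham of 0.09 and 0.15 (adjusted p = 0.83 and 0.75 by edgeR). Socs3 was at 11.5, 14.8 and 12.1 CPM in sham, at 6.47, 5.04 and 14.8 CPM in ctrl and at 6.09, 13.5 and 22.3 CPM in treat. In neutrophils Socs3 was at 39.4, 93.4 and 47.4 CPM in ctrl, at 18.0, 43.6 and 22.0 CPM in treat, and at 0 and 32.4 CPM in the 2 sham samples, which held 0 and 2 Socs3 UMIs. These levels are after TMM scaling, by which sham 3 lay below all ctrl samples. Without it sham 3, at 54.0 CPM, lay above ctrl at days 1 and 7, at 32.1 and 35.0 CPM, and above every treat sample, so that no direction is given. The difference of ctrl from sham had an adjusted p = 0.46 (edgeR). Neutrophils also differed in their clusters. Cluster 31, with Socs3 at 85.1 CPM and Osm at 901.5 CPM, held 17.8% of ctrl, 1.56% of treat and 0% of sham neutrophils. Cluster 1, with Socs3 at 32.1 CPM and Osm at 680.5 CPM, held 81.7%, 98.2% and 68.9%. Of the cells of cluster 31, 78.3% came from 1 ctrl sample. The part of this mix was not tested.

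Other genes of the pathway were read from lists of ligands, receptors, kinases and STATs, inhibitors, and STAT3 targets. Over all cells in ctrl against sham, 1 of 6 ligands tested rose, 1 of 4 receptors fell, none of 8 kinases and STATs passed, 2 of 13 inhibitors and shedding enzymes rose, and 3 of 22 STAT3 targets rose. Of all genes tested, 4.43% rose and 4.17% fell. The largest changes were in Ebi3, a subunit of IL-27 and IL-35 (2.19, adjusted p = 0.016), Il1rn, the IL-1 receptor antagonist (2.10, adjusted p = 0.025), Ptpn1, a phosphatase that acts on JAK kinases (1.80, adjusted p = 0.021), and Lifr, the LIF receptor subunit (-1.63, adjusted p = 0.031), all by edgeR. Ebi3 was between 4.99 and 7.75 CPM in sham and between 24.6 and 30.5 CPM in ctrl. The lists' median differences were 0.90 for ligands, -1.79 for receptors, 0.78 for kinases and STATs, 0.12 for inhibitors and 0.66 for STAT3 targets, beside -0.01 over all genes. The 13 digestion stress genes tested had a median of -0.39, and their summed level was between 10856 and 12470 CPM in sham, 5993 and 7686 CPM in ctrl and 6999 and 7166 CPM in treat. Its part in these differences was not tested.

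By day, more kinases and STATs passed at days 3 and 7 than at day 1. The ctrl day 3 counts include libraries 2 and 3, with 412 and 330 cells, and counts without them are not given. None of 8 passed in ctrl at day 1, whereas 6 of 8 rose at day 3 and 6 of 8 at day 7, and in treat 1, 4 and 6 of 8 rose at days 1, 3 and 7. Of all genes, 10.2%, 5.29% and 11.3% rose in ctrl on these days and 5.89%, 4.10% and 6.24% in treat. In treat at day 3 the largest changes of all lists included Jak3, a kinase mainly of lymphocytes (1.98, adjusted p = 0.0069). The T marker sum over 10 genes ranged from 41.0 to 172 CPM in sham, 82.2 to 1038 CPM in ctrl and 105 to 1054 CPM in treat, and its part was not tested. The receptors other than the members that fell past the threshold in ctrl were 3, 2 and 3 of 4 at days 1, 3 and 7. Cntfr led on days 1 and 7, with differences of -4.02 and -3.42 (adjusted p = 0.0090 and 0.014). In treat 1, 0 and 2 of 4 fell, led by Cntfr at day 7 (-5.17, adjusted p = 0.0067). Of all genes, 11.7%, 4.42% and 10.7% fell in ctrl and 4.02%, 2.60% and 6.38% in treat. Marker sums of other classes also differed. Those of Schwann cells ranged from 18.4 to 32.0 CPM in sham, 5.00 to 9.72 CPM in ctrl and 8.81 to 13.4 CPM in treat. Those of lymphatic endothelial cells ranged from 770 to 3012, 186 to 304 and 202 to 1086 CPM. Those of fibroblasts ranged from 4158 to 34290, 1015 to 7538 and 4193 to 12479 CPM, with sham overlapping both arms. Their part in the receptor differences was not tested. Cntfr and the other ligand-binding chain Il11ra1 were higher in treat than in ctrl at day 1 (4.63, adjusted p = 0.011, and 1.97, adjusted p = 0.015), but library 3 of treat day 1 held 670 Cntfr UMIs against 55 and 24 in libraries 1 and 2.

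Of 22 STAT3 targets, 7, 6 and 6 rose in ctrl at days 1, 3 and 7, with 1 lower at day 3, and 6, 2 and 3 rose in treat, beside shares of all genes that rose of 10.2%, 5.29% and 11.3% in ctrl and 5.89%, 4.10% and 6.24% in treat. At day 1 the largest changes were in Fgg, the fibrinogen gamma chain (6.001, adjusted p = 0.00082), and Hp, haptoglobin (4.45, adjusted p = 0.012), in ctrl, and in Hp (4.93, adjusted p = 0.017) and Fgg (4.58, adjusted p = 0.0070) in treat. Both are acute-phase genes of hepatocytes, and the summed level of 8 hepatocyte markers ranged from 329 to 766 CPM in sham, 194 to 955 CPM in ctrl and 247 to 546 CPM in treat. At day 7 Batf, a transcription factor of lymphocytes, differed by 3.35 (adjusted p = 0.0019) in ctrl and by 2.90 (adjusted p = 0.0061) in treat. Within classes, the list genes that passed in ctrl against sham included Hp in fibroblasts (4.40, adjusted p = 0.027) and Lrg1, a leucine-rich glycoprotein, in monocytes and macrophages (2.92, adjusted p = 0.044) and biliary epithelial cells (2.86, adjusted p = 0.043). Lrg1 was among the leading genes of neutrophil clusters, whose share of cells was also higher in ctrl, and the part of free RNA was not tested for Lrg1 or Hp. In treat against sham Hp in fibroblasts passed as well (5.39, adjusted p = 0.041). All these values are log2 differences from edgeR.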

How the data were processed

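Single-cell RNA-seq of rat bile duct was analysed from 20 libraries of 9 samples. The files deposited by the authors hold raw UMI counts, 1 matrix per library, with empty barcodes included. The matrix headers name Cell Ranger 4, and the submitters' processing notes name Cell Ranger 5.0.1 and Seurat 3.2.0. The genome build is not given in the sources used here, so no coordinates are given. Reads of overlapping or near-identical genes could have been divided by that counting.

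A barcode was kept as a cell if it had over 400 but below 6000 genes, less than 25% of UMIs from mitochondrial genes and less than 3% from hemoglobin genes. The highest-scoring cells for simulated doublets, above the 92.5th percentile of a library, were removed. Cells were grouped by the Leiden method (igraph 0.11.9, resolution 0.9) on 30 principal components of 2000 variable genes. The 9 members and the listed genes were left out of these variable genes, and clusters were named by marker lists. A marker counted as detected in over 10% of the cells of a cluster at over 2 times the CPM of all other cells, with 10 CPM added, and a name needed 3 such markers. The joining of T and NK cells, the estimate of free RNA, and leaving clusters unnamed when their first 2 leading genes belonged to another class were set after leading genes had been seen. Free RNA was estimated from barcodes with 100 UMIs or fewer.

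UMI counts were summed per sample, per library, or per sample and class with at least 20 cells. They were tested with edgeR 4.0.16 (quasi-likelihood, TMM, filterByExpr) in R 4.3.3 over all genes, with Benjamini-Hochberg adjustment and a threshold of 0.05. DESeq2 1.42.0 was an alternative. Neighbouring classes in the order of a gene were compared by a two-sided exact permutation test that flipped signs within samples, over classes present in at least 5 samples. Intervals for counting error were not computed for CPM. Groups without overlap are described as such, and the share of all genes that separate in this way is not given. Such a separation therefore cannot be read as particular to the members. The edgeR and free RNA steps were tested on simulated data. All 9 members are named, and of the lists at most the 4 largest changes past the threshold per comparison, some of which are not reported here. Members and lists were chosen with earlier results of these data known.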

Additional observations from a re-analysis of the deposited data

How the results depend on the processing

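Of 1170 alternative values of 62 results, 1085 kept their direction and side of the threshold, 40 fell below the threshold, 19 passed it only under the alternative, and 26 changed sign, in 12 of the 62 results. Most of the 62 results did not pass the threshold in the main setting and so could not fall below it. The 40 values therefore lie in the smaller set of results that did pass. Each result that passed fell below the threshold under at least 1 alternative, and Osm in ctrl did so under 6 of 27 on each day. Many alternatives left out a sample or library that was not part of the comparison. These left the compared samples unchanged, so the 1085 values are not a measure of stability. With library size in place of TMM, the median log2 difference of all genes in ctrl against sham was -0.37, the genes called were 2302 with 334 higher and 1968 lower in place of 1379 with 710 and 669, 2 members passed, Osm at 2.61 and Il6st at -1.31 (adjusted p = 0.048), and treat against sham gave 169 genes. DESeq2 called 3562 genes and 2 members in ctrl against sham, 2363 and 2 in treat against sham, 10 genes in treat against ctrl, and 22459 over the 9 contrasts by day with sham or between arms. With each library as its own sample, 2116 and 641 genes passed against sham. Without the neutrophil class, 778 genes and 0 members passed in ctrl against sham. Within classes, library size gave 1 member in ctrl against sham (Il6 in monocytes and macrophages), and Leiden resolution 2 gave 341 genes in treat against sham. With each day as 1 summed sample, 0 members and 0 genes passed. The same class led for 3 of the 9 members by share of cells with a UMI.

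Leaving out 1 sample or library gave 0 to 2 members and 0 to 1880 genes in ctrl against sham, 0 to 115 genes in treat against sham, and 1 to 10 members and 6192 to 16539 genes by day. Within classes it gave 0 to 1 members and 120 to 3103 genes in ctrl against sham, 0 to 1 members and 11 to 1211 genes in treat against sham, and 0 to 35 genes in treat against ctrl. No gene was left in ctrl against sham over all cells without sham 2, sham 3 or ctrl day 3, and the lowest counts by day were without sham 3. Differences that changed sign on leaving out 1 sample spanned, for Il6 -0.67 to 0.39 in ctrl against sham, for Il11 -1.39 to 1.13 in treat against sham, for Lif -0.11 to 0.49 in treat against ctrl, for Il6r -0.48 to 0.021 in treat against ctrl, for Osmr -0.34 to 0.29 in ctrl against sham, -0.85 to 0.53 in treat against sham and -0.79 to 0.58 in treat against ctrl, for Socs3 -0.054 to 0.48 in ctrl against sham, -0.13 to 0.37 in treat against sham and -0.30 to 0.16 in treat against ctrl.

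With the day as a replicate block for treat against ctrl, no gene passed (709 at an unadjusted p under 0.05), Osm was -1.32 (adjusted p = 0.90) and Osmr changed sign to -0.046. The paired samples share the day after LT, and the block changed no call. Sign changes under other settings were Osmr at 0.0012 in ctrl against sham without neutrophils and -0.17 in treat against sham by library size, Socs3 at -0.21 in ctrl against sham and -0.27 in treat against sham by library size, Socs3 at -0.27 in ctrl against sham and 0.29 in treat against ctrl without neutrophils, Osm at 0.67 in treat against ctrl at day 1 without neutrophils, and Osm in neutrophils at -0.18 by library size. The cause was not tested. Depth limits Lif, with 486 UMIs in all, and the sham neutrophils, with 72, 10 and 37 cells. It also limits Il11 in sham 1 fibroblasts, with 1 UMI, and in ctrl day 3 smooth muscle and mural cells, with 9 UMIs in 1 cell.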

Other observations

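Clusters that no marker rule named held some of the highest levels of the family. A cluster of 2209 cells led by Ins1, Ins2, Mgp and Ptx3, with Dcn, Col1a1 and Col3a1 further down, had Il6 at 153 CPM, Il11 at 45.3 CPM and Osmr at 29.3 CPM, and 55.5% of its cells came from 1 sample. Ins1 and Ins2 encode insulin, and Dcn, Col1a1 and Col3a1 encode fibroblast matrix proteins. A cluster of 2056 cells led by Gata3, Il2ra and Tnfrsf18, genes of innate and regulatory lymphocytes, had Il6 at 36.2 CPM, Lif at 4.20 CPM and Osm at 32.5 CPM. In named T and NK cells Il6 averaged 0.493 CPM.

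Socs3 was high in a cluster of 1792 cells led by AABR07000398.1, Lag3 and Slc27a2, at 342 CPM with Stat3 at 440 CPM. Its cells had a median of 765.5 UMIs, and 50.5% of them came from 1 sample. Krt18, Rgs13, Nrgn and Ltc4s led a cluster of 3849 cells with Socs3 at 60.3 CPM, at a median of 1552 UMIs. These values are over all cells of a cluster, with no replicate error, and were picked after the values had been seen.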
